A study of Mus musculus with 6 samples.

Results

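Thymosin beta and the other actin monomer binders are described here in 4T1ch9, 1 clone of the BALB/c mammary tumour line 4T1. The cells had been transduced with lentivirus carrying either an STC1 shRNA, a short hairpin that targets Stc1, or a non-targeting shRNA. The set holds 9 of the 19057 genes named on the array: Tmsb10, Tmsb4x, Pfn1, Pfn2, Cfl1, Cfl2, Dstn, Cap1 and Twf1. Every probe annotated to these symbols was taken, 17 in all, and 15 of them were tested, being above background (detection p-value under 0.05) on 2 or more of the 6 arrays. The genes bind actin monomers, and they were chosen by the measured difference of Tmsb10 between the 2 hairpins in these same arrays, so the differences between the hairpins are given as a description, with no test.

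Cells were given 6 µl of STC1 shRNA virus (2 arrays), 18 µl of STC1 shRNA virus (2 arrays), or non-targeting shRNA virus at 6 µl (1 array) and 18 µl (1 array). All transduced cells, those with the non-targeting hairpin included, were held in puromycin for 5 to 6 days before total RNA was taken. The labels say neither how many hairpin sequences the STC1 virus carried nor that the samples were grown as separate cultures. The p-values below therefore reflect only how far these samples spread, which may be technical.

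Most unpolymerised actin in a cell is held by small binding proteins. The beta thymosins keep ATP-loaded monomers in reserve, profilins exchange the nucleotide on actin and deliver monomers to growing filament ends, and the ADF/cofilins sever ageing filaments and release ADP-loaded monomers. Cyclase-associated protein and twinfilin act with cofilin to take filaments apart and recycle the monomers.

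Precision is limited by the small number of arrays. Mean raw intensity was 253.6 to 310.6 on the STC1 arrays and 228.3 to 253.1 on the non-targeting arrays, and 16252 to 17507 of 45281 probes were above background on each array. Stc1, the targeted gene, was lower with the STC1 hairpin (log2 difference -1.35, SE 0.14, limma adjusted p = 0.0025). Of 11 epithelial markers 4 (Krt7, Krt8, Krt18 and Cldn3) were above background on all 6 arrays. Another 3 (Epcam, Krt14 and Krt19) were above background on none. Of the markers of other cell types on the array, 1 of 8 for fibroblasts (Pdgfra) and none of 6 for leukocytes, 6 for endothelium or 8 for muscle were above background on all 6 arrays. Of the 6 leukocyte markers 4 were above background on no array, so their sum is mostly signal near background. That summed normalised level was 129 to 143 on the STC1 arrays and 128 on both non-targeting arrays. Its part in the results was not tested. The summed ranges of the other lists overlapped between the hairpins.

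The probes of Tmsb10 are annotated to different RefSeq transcripts, and the RefSeq promoter table (GRCm38.p6) lists 3 start windows for it, each from 250 bases before a start to 50 after, against 1 window for each of the other 8 genes. The most downstream Tmsb10 window (chr6:72958183-72958482, minus strand) and the Tmsb4x window (chrX:167209169-167209468, minus strand) are shown because the brightest probes of these 2 related thymosins differed between the hairpins by -3.14 and 0.003 on the log2 scale. Capitals mark matches, on either strand, to TATAA or GGGCGG.
Tmsb10: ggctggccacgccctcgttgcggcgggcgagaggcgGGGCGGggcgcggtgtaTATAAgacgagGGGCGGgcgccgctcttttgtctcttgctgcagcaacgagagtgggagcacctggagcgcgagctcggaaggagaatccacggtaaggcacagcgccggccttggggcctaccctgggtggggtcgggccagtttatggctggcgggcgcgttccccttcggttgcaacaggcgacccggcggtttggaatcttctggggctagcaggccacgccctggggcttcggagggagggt
Tmsb4x: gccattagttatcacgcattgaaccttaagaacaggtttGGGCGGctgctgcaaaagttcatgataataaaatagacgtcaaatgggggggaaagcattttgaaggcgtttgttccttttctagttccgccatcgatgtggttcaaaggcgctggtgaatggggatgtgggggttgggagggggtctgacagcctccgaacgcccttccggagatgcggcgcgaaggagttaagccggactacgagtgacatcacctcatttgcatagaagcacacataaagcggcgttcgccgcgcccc
The Tmsb10 window held 1 TATAA and 2 GGGCGG matches, none overlapping another motif, and 68.7% of its bases were G or C. The Tmsb4x window held 1 GGGCGG match and no TATAA, with 52.7% G or C. Over all 32851 windows of this length in the table, 24.9% held TATAA and 35.7% held GGGCGG. Also searched were CCAAT (37.4% of all windows), CACGTG (7.15%) and the CArG box of serum response factor (1.63%), and neither thymosin window shown held any of them. None of the 11 windows of the 9 genes held a CArG box. The other 2 Tmsb10 windows lie at chr6:72958434-72958733 and chr6:72958699-72958998, and neither held TATAA. The former held 2 GGGCGG matches, with 71.7% G or C. The latter held 1 GGGCGG match, with 56.7% G or C, nearer to the Tmsb4x window than the Tmsb10 window shown. Which start belongs to which annotated transcript is not given in the table. The window shown therefore cannot be tied to the probes that differed, and nothing is read from its contrast with Tmsb4x.

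Tmsb10 encodes thymosin beta 10, one of the small monomer-sequestering peptides, and its brightest probe (ILMN_3145331) read 426 and 366 in raw bead intensity with the STC1 hairpin at 6 µl and 349 and 280 at 18 µl, against 2268 and 2637 on the non-targeting arrays. Every STC1 array lay far below both non-targeting arrays, and the probe was still above background on all 6. In normalised log2 units this probe averaged 8.24 ± 0.19 with the STC1 hairpin (SD, n = 4) and 11.39 ± 0.02 with the non-targeting one (SD, n = 2), a log2 difference of -3.14 (SE 0.14), or 8.84-fold. Fewer cells of a type and less RNA per cell cannot be told apart in such bulk samples. The second probe of the same RefSeq transcript (ILMN_3067068) had raw intensities of 237, 228, 205 and 208 on the STC1 arrays and 1284 and 1590 on the non-targeting arrays. Its log2 difference was -3.15 (SE 0.12), so both probes of this transcript gave nearly the same size. By size of fall these were numbers 2 and 1 of the 18076 probes tested.

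Tmsb10 probe 3 (ILMN_1225332), annotated to another RefSeq transcript of the gene, was dim, at 57.5, 57.0, 50.7 and 54.5 on the STC1 arrays and 67.6 and 79.0 on the non-targeting arrays. It was above background on both non-targeting arrays (detection p-values 0.00641 and 0.00214) and on none of the STC1 arrays (0.156 to 0.39). The probe entered the tested set only through the group in which it was high, and so had to differ. On the background-corrected, normalised scale it was at least 1.60-fold lower with the STC1 hairpin, given as a description on that scale only. That bound was the mean normalised log2 value of the non-targeting arrays, 5.38, set against an STC1 mean in which each STC1 array took the higher of the probe's own signal and the lowest signal above background. The measured STC1 mean was 4.44 and the measured log2 difference -0.93 (SE 0.13). With no background correction, and in the authors' values, the measured difference was smaller than that bound, at 1.42-fold.

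Tmsb4x encodes thymosin beta 4, the relative of thymosin beta 10 and the best known actin-sequestering peptide. Its detected probe (ILMN_2806159) had raw intensities of 3738, 3224, 2768 and 3081 on the STC1 arrays and 2579 and 2884 on the non-targeting arrays. After normalisation the groups overlapped, at 11.55 ± 0.07 with the STC1 hairpin (SD, n = 4) and 11.55 ± 0.04 with the non-targeting one (SD, n = 2). The log2 difference was 0.003 (SE 0.11), and it was 0.20 when arrays were scaled to a common median rather than quantile-normalised. With that scaling the median of all probes was itself at 0.149, and relative to it Tmsb4x was at 0.05. A second Tmsb4x probe (ILMN_2521356) was above background on no array, with raw intensities from 42.8 to 47.9, and is not considered further.

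The ratio of the brightest Tmsb10 probe to the detected Tmsb4x probe within an array needs no normalisation between arrays. It was taken from raw intensities with no background correction, so background is part of both signals. With the STC1 hairpin this ratio was 0.114 and 0.113 at 6 µl and 0.126 and 0.0908 at 18 µl, against 0.880 and 0.914 with the non-targeting hairpin. The 2 probes bind differently, so the ratio says nothing of the amounts of the 2 transcripts. It restates the Tmsb10 difference that chose the genes and is given as a description.

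**Figure D1:**
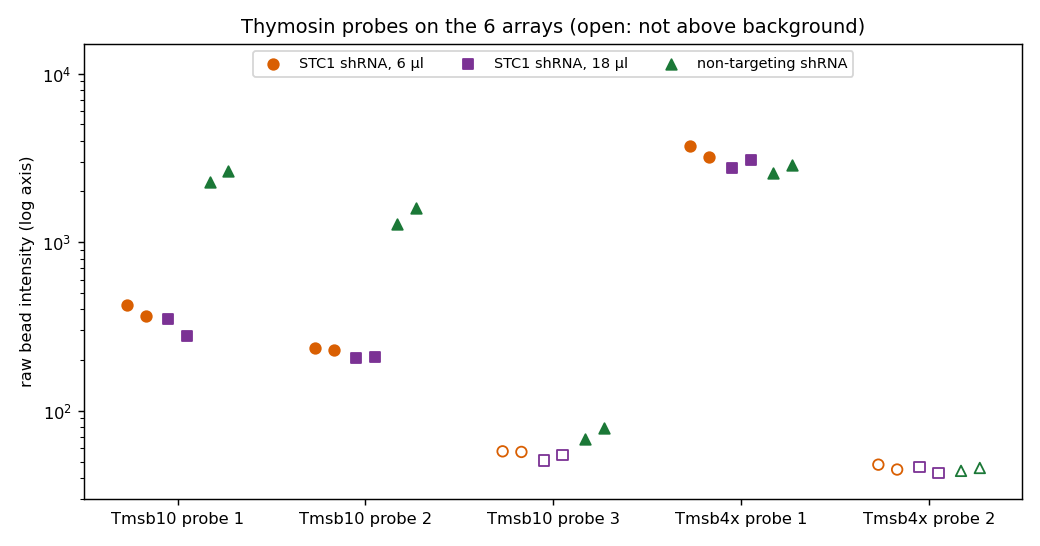
Raw bead intensity (log axis) of each thymosin probe on the 6 arrays, with STC1 6 µl as circles, STC1 18 µl as squares and non-targeting as triangles. Each point is 1 array and open points were not above background. Tmsb10 probes 1 and 2 lie between 205 and 426 on the STC1 arrays and between 1284 and 2637 on the non-targeting arrays, while the arrays overlap for Tmsb4x probe 1.

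The profilins gave small differences of opposite sign. Pfn1 encodes the widely expressed profilin, and its first probe (ILMN_2863965) had normalised log2 values of 10.51, 10.48, 10.46 and 10.64 on the STC1 arrays and 10.67 and 10.61 on the non-targeting arrays. The groups overlapped, with a log2 difference of -0.12 (SE 0.11). A second Pfn1 probe (ILMN_2673211) overlapped as well, at 9.95, 9.54, 10.03 and 10.16 on the STC1 arrays against 10.22 and 10.07 on the non-targeting arrays, for a difference of -0.22 (SE 0.14). Both Pfn1 differences changed sign with median scaling, to 0.09 and 0.001, where the median of all probes was itself at 0.149.

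Pfn2 encodes a profilin best known from the nervous system. Its first probe (ILMN_1260064) stood at 7.52, 8.11, 7.71 and 7.80 on the STC1 arrays and 7.50 and 7.60 on the non-targeting arrays, and the groups overlapped (difference 0.24, SE 0.16). On the second probe (ILMN_2929791) all 4 STC1 arrays, at 7.14, 7.37, 7.09 and 7.17, lay above both non-targeting arrays, at 7.05 and 6.82 (difference 0.26, SE 0.13). Both Pfn2 probes kept a positive difference under each of the 13 alternatives run on them, from 0.09 to 0.42. Among these, other detection filters, a replicate block and a fit of 2 groups only leave a difference unchanged by design. The authors' values nearly repeat those with no background correction. Pfn2 probe 3 (ILMN_1235670) was just outside the detection limit, above background on 1 array only with its next lowest detection p-value at 0.0566, whereas Tmsb10 probe 3 was just inside it.

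Cfl1 encodes the cofilin of non-muscle cells. Its single probe (ILMN_1213376) had normalised log2 values of 8.16, 8.04, 8.24 and 8.23 on the STC1 arrays and 8.70 and 8.65 on the non-targeting arrays. All STC1 arrays were below both non-targeting arrays, with a log2 difference of -0.51 (SE 0.11), or 1.42-fold. In raw intensity the arrays overlapped, at 309 to 389 against 389 to 418. STC1 replicate 1 at 6 µl, which read 389, had the highest mean intensity of the 6 arrays.

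Cfl2 encodes the cofilin best known from muscle, and its 2 probes moved in opposite directions. Probe 1 (ILMN_1241871) stood at 6.71, 7.01, 6.69 and 7.04 on the STC1 arrays and 6.56 and 6.69 on the non-targeting arrays, all STC1 arrays being higher (difference 0.24, SE 0.14). Probe 2 (ILMN_1249976) stood at 6.02, 5.85, 5.90 and 5.55 on the STC1 arrays and 6.49 and 6.17 on the non-targeting arrays, all STC1 arrays being lower (difference -0.50, SE 0.15). Both are annotated to the same RefSeq transcript, so no direction can be given for the gene. Each sign was the same under all 13 alternatives, which include those that leave a difference unchanged by design.

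Dstn encodes destrin, or actin-depolymerising factor. Its bright probe (ILMN_2801683) was at 11.81, 11.73, 11.62 and 11.74 on the STC1 arrays and 11.88 and 11.95 on the non-targeting arrays, where no STC1 array reached the lower non-targeting one (difference -0.19, SE 0.11). The dim probe (ILMN_2733695) ranged from 4.97 to 5.56 on the STC1 arrays, against 5.44 and 5.59 on the non-targeting arrays, with overlap (difference -0.17, SE 0.17). With median scaling the 2 differences were -0.005 and -0.07, or -0.15 and -0.21 relative to the median of all probes.

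Cap1 encodes adenylyl cyclase-associated protein 1, which recharges monomers released by cofilin. Its probe (ILMN_2648661) had values of 11.51, 11.36, 11.40 and 11.47 on the STC1 arrays and 11.75 and 11.62 on the non-targeting arrays. The groups did not overlap, and the difference was -0.25 (SE 0.11). With median scaling it was -0.06, or -0.20 relative to the median of all probes. Twf1 encodes twinfilin 1, a monomer binder that also acts at filament ends, and its dim probe (ILMN_2763748) was at 5.14, 4.91, 5.37 and 4.96 on the STC1 arrays and 5.36 and 5.42 on the non-targeting arrays. Here 1 STC1 array at 18 µl lay between the 2 non-targeting arrays (difference -0.30, SE 0.14).

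**Figure D2:**
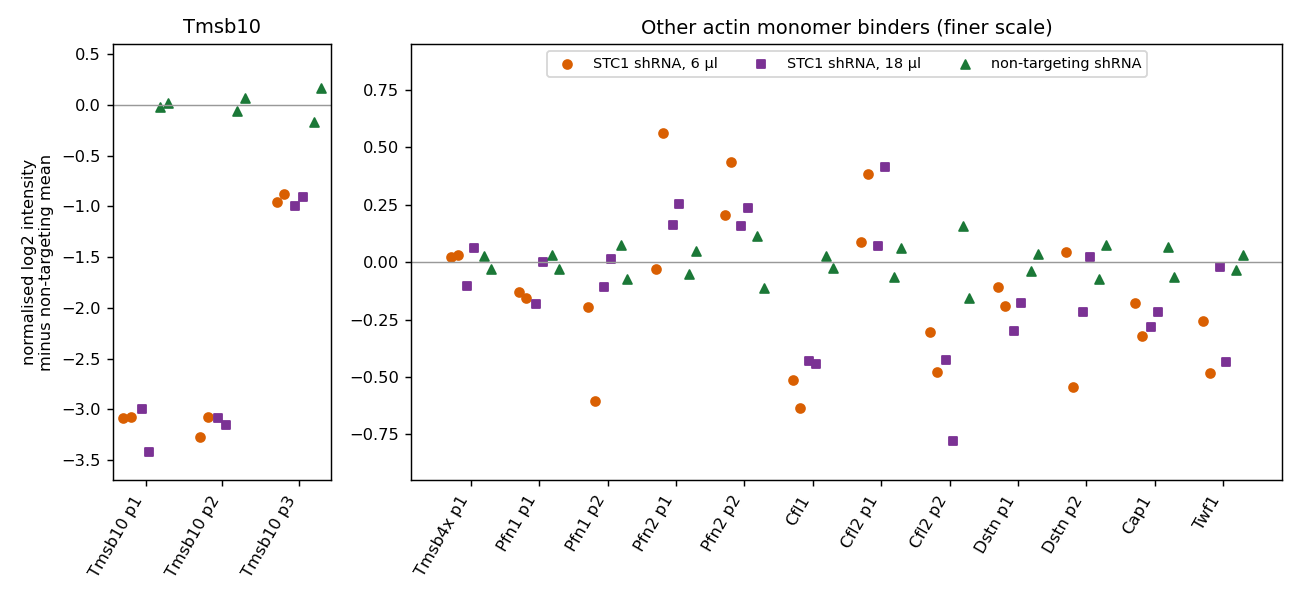
Normalised log2 intensity of each tested probe minus the mean of the 2 non-targeting arrays, with 1 point an array (STC1 6 µl circles, STC1 18 µl squares, non-targeting triangles). The left panel holds Tmsb10 and the right panel the other probes on a finer scale; probes 1 and 2 of Tmsb10 lie near -3 on the STC1 arrays, while every point in the right panel lies within 1 log2 unit of 0.

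Of the 15 tested probes 4 were among those past the all-probe threshold (limma, adjusted p under 0.05) in the difference between the hairpins, all lower: the 3 of Tmsb10 and that of Cfl1. Over all 18076 tested probes the share past the threshold was 7.78%, and 3.98% were past it on the lower side. The genes were chosen with this difference known, and Tmsb10 probe 3 entered only through the group in which it was high. Nothing is read from this count or from the next ones, of probes whose arrays did not overlap. All STC1 arrays lay below both non-targeting arrays for 7 of the 15 probes (16.5% of all tested probes) and above both for 2 (18.9% of all tested probes), and the other 6 overlapped. In raw intensity only the 3 Tmsb10 probes were lower on all STC1 arrays (2.82% of all tested probes), the first 2 Pfn2 probes were higher on all (30.3% of all tested probes), and 10 overlapped, those of Cfl1, Cfl2, Dstn and Cap1 among them. The median log2 difference was -0.22 over the 15 probes and 0.01 over all tested probes. Without non-targeting replicate 2, the array at 18 µl, the count of 4 was 2, the probes 1 and 2 of Tmsb10. The Cfl1 probe was not past the threshold with median scaling or without any 1 of 5 arrays, namely either non-targeting array, either STC1 array at 6 µl, or STC1 replicate 2 at 18 µl.

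The difference between the 2 volumes of STC1 virus was tested, since this contrast was not the one that chose the genes, although the same STC1 arrays entered that choice. None of the 15 probes differed between the STC1 arrays at 18 µl and those at 6 µl (limma, smallest adjusted p = 0.723, n = 2 against 2), and none had an unadjusted p under 0.05. Over all probes 0% passed, and 1230 of 18076 had an unadjusted p under 0.05. The brightest Tmsb10 probe averaged 8.18 ± 0.30 at 18 µl and 8.31 ± 0.002 at 6 µl (SD, n = 2 each), for a log2 difference of -0.13 with a 95% interval from -0.49 to 0.23. The second Tmsb10 probe differed by 0.06, with an interval from -0.25 to 0.36. For Cfl1 the difference was 0.14 (-0.15 to 0.42) and for Tmsb4x -0.05 (-0.34 to 0.24). The largest difference was that of Pfn1 probe 2, at 0.35 (-0.02 to 0.72). A p that misses the threshold does not show equal levels, and these intervals reach 0.28 to 0.45 to either side of the estimates.

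Set against the non-targeting array of the same volume, the brightest Tmsb10 probe was at -3.06 at 6 µl and -3.23 at 18 µl, and the second at -3.11 and -3.18. Cfl1 was at -0.60 at 6 µl and -0.41 at 18 µl. The difference between the effects at 18 and 6 µl was -0.16 (SE 0.29) for the brightest Tmsb10 probe and 0.19 (SE 0.24) for Cfl1. No probe of the set passed the test of this difference by limma (smallest unadjusted p = 0.127), and none of all 18076 did (0%), with 773 at an unadjusted p under 0.05. The 2 non-targeting arrays, 18 µl minus 6 µl, differed by 0.03 for the brightest Tmsb10 probe, 0.13 for the second and 0.33 for probe 3, with 1 array at each volume.

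**Figure D3:**
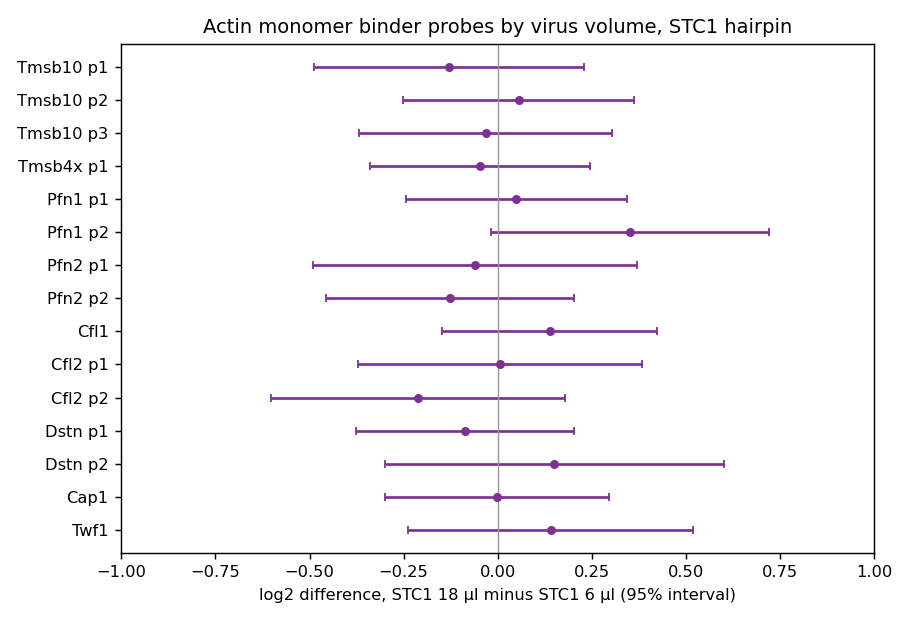
Log2 difference between STC1 arrays at 18 µl and at 6 µl for the 15 tested probes, as points with 95% intervals from limma (n = 2 against 2). Every interval includes 0, and the largest estimate is 0.35 for Pfn1 probe 2.

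Among 811 named probes whose log2 values spanned at least 1 over the 6 arrays, the genes whose profile was most like the brightest Tmsb10 probe were Sri (the calcium-binding protein sorcin), Bloc1s1 (a subunit of lysosome-related complexes), Mycbp (a MYC-binding protein), Polr3k (an RNA polymerase III subunit) and Col18a1 (a basement membrane collagen). Pearson's r over the 6 arrays ran from 0.9949 for Col18a1 to 0.9979 for Sri. The 6 points fall into 2 clusters by hairpin, so any probe with a clean difference between the hairpins gives such an r. Sri was at 8.12, 8.07, 8.12 and 7.88 on the STC1 arrays and 9.43 and 9.57 on the non-targeting arrays, a log2 difference of -1.45 (SE 0.12), which was less than that of Tmsb10.

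The other genes of actin turnover were taken from 9 lists of 147 genes outside the set, of which 134 were on the array and 97 were tested by their brightest probe. With the STC1 hairpin 6 rose, 6 fell and 85 did not pass, or 12.4% called, where 8.17% of all 9754 tested genes were called (4.45% higher and 3.72% lower). The median log2 difference was -0.06 over these 97 genes and 0.03 over all tested genes. With median scaling 12 rose and 4 fell, where 14.0% of all tested probes were called, 80.8% of them higher.

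In the list of further monomer binders and their partners 1 of 6 tested genes rose and 2 fell. Phactr1, a regulator of phosphatase 1 that binds actin monomers, was at 7.79, 7.75, 6.76 and 7.77 on the STC1 arrays and 6.25 and 5.96 on the non-targeting arrays (log2 difference 1.41, SE 0.24, limma adjusted p = 0.0147). A second Phactr1 probe was at -0.22 and did not pass. Wipf2 and Wipf1, partners of the WASP family that bind actin, fell by 0.64 (SE 0.11) and 0.62 (SE 0.13), with adjusted p = 0.0161 and 0.0263. Twf2, the relative of Twf1, was at 0.27 (SE 0.12) and did not pass.

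Of 16 genes of cofilin regulation and filament disassembly only Gmfg, a relative of cofilin that acts on branched filaments, rose (0.65, SE 0.14, adjusted p = 0.0279), and 15 did not pass. Gmfg was above background on 1 of the 2 non-targeting arrays, and its other 2 probes did not pass (0.70 and 0.15). With no background correction Gmfg was at 0.33. Of 7 tested subunits of the Arp2/3 complex, the nucleator of branched filaments, Arpc5l rose (0.47, SE 0.12, limma adjusted p = 0.047). The other 6 did not pass. Leaving out 1 array put Arpc5l at 0.42 to 0.53, and its call was lost whichever array that was. Of 22 nucleation promoters and formins Cttn, or cortactin, fell (-0.80, SE 0.19, adjusted p = 0.0394), above background on 2 of 4 STC1 arrays, and its 3 other probes, from -0.44 to -0.10, did not pass. Without non-targeting replicate 1 Cttn was at -0.43 (adjusted p = 0.217) and with no background correction at -0.43, and no Cttn probe was above background on all 6 arrays. Of 11 capping and severing genes Add3, an adducin, rose (0.60, SE 0.14, adjusted p = 0.0404), and its other 2 probes were also called higher (0.65 and 0.64).

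Of 13 crosslinkers and bundlers Msn, the membrane linker moesin, fell the most of all 97 genes. It was at 7.17, 6.88, 6.96 and 6.87 on the STC1 arrays and 8.34 and 7.94 on the non-targeting arrays (-1.17, SE 0.15, adjusted p = 0.0055). A second Msn probe was at 0.05 and did not pass. Of 9 tropomyosin and non-muscle myosin genes Mylk, the myosin light chain kinase, rose (0.85, SE 0.11, adjusted p = 0.00489), with 2 further probes called higher (0.86 and 0.61). Tpm3, a tropomyosin, fell (-0.83, SE 0.16, adjusted p = 0.0213), and its other 2 probes did not pass (-0.64 and -0.01). Of 11 genes of the MRTF and SRF list, a transcription pathway that senses free actin monomers, 9 did not pass. Ccn2 rose (0.72, SE 0.16, limma adjusted p = 0.0347) and Srf itself fell (-0.67, SE 0.12, adjusted p = 0.0154). With median scaling Srf was at -0.46 and did not pass. Without non-targeting replicate 2 Ccn2 was at 0.43 (adjusted p = 0.194).

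Of the actin isoforms Actb and Acta2 were tested, and neither passed. The brightest Actb probe was at -0.04 (SE 0.14) and Acta2 at -0.05 (SE 0.13), and both changed sign under some alternatives. The 4 other Actb probes were all lower, at -0.43 to -0.60, and 1 of them passed (-0.59, SE 0.11, adjusted p = 0.0174). With the STC1 hairpin that probe stood at 5.81 and 5.86 at 6 µl and at 6.59 and 6.60 at 18 µl. The non-targeting arrays stood at 6.83 and 6.77, so the difference of -0.59 averages 2 volumes that read unlike. Actb was singled out after its values were seen, as were Wdr1, Arpc5, Fmnl2 and Tpm4, for each of which a dimmer probe passed on the lower side (-0.62 to -0.73) though the brightest did not. A dimmer probe of Abi2 passed on the higher side (0.47).

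Single arrays weighed on these calls. Without non-targeting replicate 1 there was 1 gene higher and 0 lower, and the share of all tested probes past the threshold was 0.857%, against 7.78% with all arrays. Leaving out non-targeting replicate 2 gave 1 higher and 2 lower (1.15% of all probes), and leaving out STC1 replicate 2 at 6 µl also gave 1 higher and 2 lower (1.78%). With STC1 replicate 1 at 6 µl left out 3 rose and 4 fell (3.87%), and with STC1 replicate 2 at 18 µl left out 2 rose and 4 fell (3.77%). The count over the lists was thus lower where that over all probes was lower. Msn and Mylk each lost the call under 1 of 14 alternatives, without non-targeting replicate 1 (adjusted p = 0.0507 and 0.053), where Mylk was at 0.83, and the other 10 called genes lost it under 3 to 8.

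**Figure D4:**
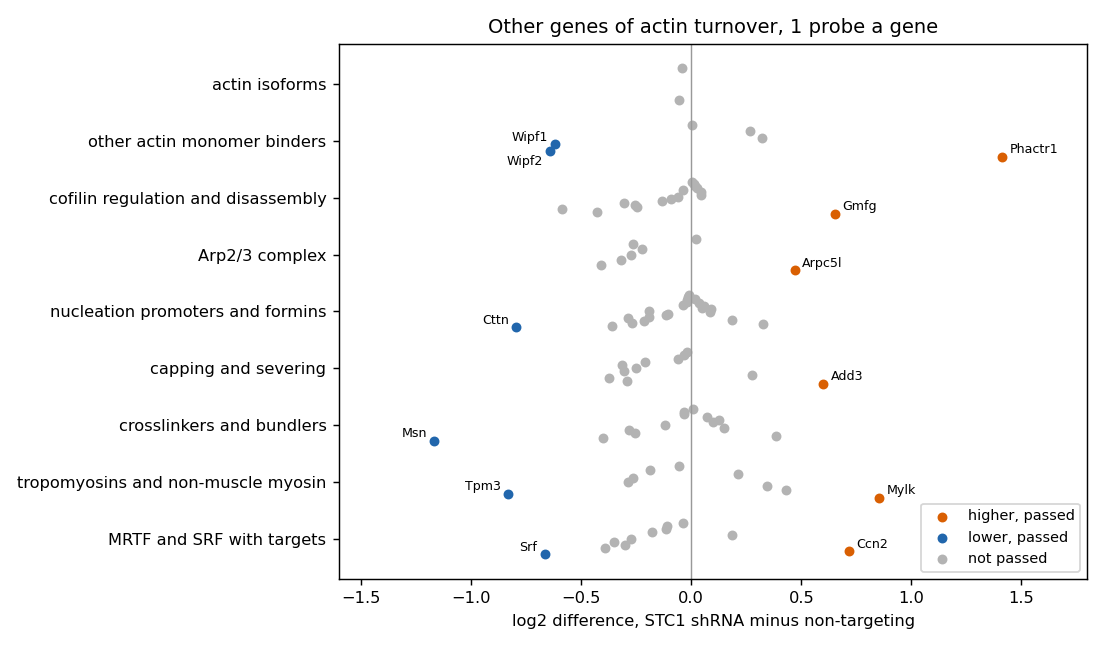
Log2 difference, STC1 minus non-targeting, of the 97 tested genes of actin turnover, with 1 point a gene and 1 row a list. Orange points passed on the higher side (6), blue points on the lower side (6) and grey points did not pass (85).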

How the data were processed

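The 6 samples were total RNA of 4T1ch9 cells on Illumina bead arrays, prepared as biotinylated cRNA per the labels' protocols. The authors deposited a table of linear, non-normalised intensity values, 1 column an array, and to the right of each a detection p-value column, per the file headers. The authors' deposited processed table holds log2 values of unstated normalisation. Its columns had a median of 5.777 each and lay within a median of 0.0002 of the quantile-normalised log2 raw intensity. The scanner software was not given in the sources used here.

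Intensities were background-corrected, offset by 16 and quantile-normalised by the neqc function (limma 3.58.1, R 4.3.3). The offset understates folds of dim probes, and quantile normalisation removes any shift shared by most probes. Of 45281 probes, 18076 were tested, those detected at 0.05 in 2 or more of the 6 columns. Symbols came from the platform annotation, which lists 34903 probes, 34885 with 1 symbol and 18 with several. Of these, 34807 were matched by gene identifier to the RefSeq gene table of GRCm38.p6, and 10378 probes had no entry. Genes with several tested probes outside the set were represented by the brightest.

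limma's lmFit and eBayes were fitted to all 6 arrays with 3 group means (3 residual and 5.66 prior degrees of freedom), and a second model held virus, volume and their interaction. P-values were two-sided and Benjamini-Hochberg adjusted over all tested probes. The genes, lists and tests were chosen with earlier results of these data known. Every probe of the 9 genes is named. In the lists, all genes that passed are named (up to 4 a list), or the 2 with the smallest p where none did. Named besides are Twf2, as the relative of Twf1, and the genes of which only a dimmer probe passed. The most alike genes are the 5 with the highest r. The procedure was checked on simulated data. Alternatives were no background correction, median scaling, the authors' values, other detection filters, leaving out each array, a replicate block, 2 groups only and another probe for a gene.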

Additional observations from a re-analysis of the deposited data

Results flagged for a closer look

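Pfn2 probe 3 (ILMN_1235670) was left out of the tests because it was above background on 1 array only. It read 65.2 in raw intensity on that array, STC1 replicate 2 at 18 µl, where its detection p-value was 0.0182. The other STC1 arrays read 62.1, 60.8 and 53.3, and the non-targeting arrays 55.0 and 54.2, none of them above background. It was set apart because a signal appeared on an STC1 array and on neither non-targeting array.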

How the results depend on the processing

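Under all 13 alternatives the log2 differences of Tmsb10 probes 1 and 2 lay between -3.24 and -2.91. Other detection filters, the replicate block and 2 groups only leave these differences unchanged by design. Probe 3 was at -0.51 with no background correction or the authors' values and at -1.12 at its lowest, and it did not enter with detection on all 6 arrays. The number of probes of the set past the threshold between the hairpins ranged from 2 to 4 when 1 array was left out and from 3 to 5 under the other alternatives, and none passed between virus volumes under any fit. For the actin turnover lists the count of genes that rose was 12 with median scaling and 1 with no filter on dim probes. The count that fell was 12 with no background correction, 12 with the authors' values, 3 with no filter and 10 when the probe with the largest spread stood for a gene. Leaving out 1 array gave 1 to 4 that rose and 0 to 8 that fell. Leaving out 1 array moved Acta2 between -0.20 and 0.090 (0.090 in the absence of non-targeting replicate 1, 0.016 in that of STC1 replicate 1 at 6 µl) and Actb between -0.13 and 0.040 (0.018 and 0.040 in the absence of STC1 replicate 2 at 6 µl and at 18 µl). Actb was at 0.10 with median scaling. The cause was not tested.

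Over all probes 2528 passed with median scaling, 80.8% of them higher against 48.9% of 1407 in the setting reported, and the median log2 difference was 0.149 against 0.014. With no background correction or the authors' values 2288 passed, with no filter 787, and without non-targeting replicate 1 or 2 only 155 and 207. Same-numbered arrays of different groups did not deviate together (r = -0.11 to 0.005 over the tested probes). In the non-targeting group the replicate number is also the virus volume, so these r cannot show whether the numbers pair the arrays. A block on the replicate number therefore mixes in the volume of the non-targeting arrays. With this block 5 probes of the set were past the threshold, Cfl2 probe 2 being added. None passed between volumes, and 5 genes of the lists rose and 6 fell. The interaction was not run with this block. It could not be fitted without a non-targeting array, and 2 groups only gives no volume contrast.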
